A study of Sus scrofa with 6 samples.

Results

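Solute carriers (SLC) are membrane proteins that move nutrients, ions, metals and metabolites across the cell surface and across the membranes of organelles. Their genes were followed here in the left atrium of Lanyu miniature pigs, 6 males aged 18 months, each measured on its own Affymetrix array for pig genes. Members were all probe sets whose single symbol in the platform annotation begins with SLC and a digit or with SLCO, control probe sets aside. This gave 184 probe sets for 123 genes, among 6765 genes with a symbol of their own on the array, and each gene was represented by its probe set with the highest mean over the 6 arrays. Of the 123 genes, 21 carried an SLC25 symbol and 102 did not. Pigs of the MRV group had mitral regurgitation, in which the valve leaks blood back into the atrium, after a hole of 2.8 mm was made in the posterior leaflet, and took valsartan daily at 3.43 mg/kg/day beginning 1 week ahead of the operation (n = 2). Valsartan blocks the type I angiotensin II receptor. MR pigs had the same lesion without the drug (n = 2), and both lesioned groups were killed 12 months after surgery. NC pigs were age-matched normal controls for which no surgery is recorded, so comparisons with NC cannot tell regurgitation apart from the operation that made it (n = 2).

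A carrier does not burn ATP itself. It lets a solute run down its gradient or couples it to sodium, protons or a counter-solute. Atrial muscle takes up glucose through the GLUT family (SLC2), fatty acids through SLC27 proteins, carnitine through SLC22A5, creatine through SLC6A8 and amino acids through SLC1, SLC7 and SLC38 proteins, and it extrudes calcium through the sodium-calcium exchanger SLC8A1. The SLC25 family lies mostly in the inner mitochondrial membrane, where it passes ADP, ATP, phosphate, aspartate, malate, citrate and acylcarnitines between the matrix and the cytosol. Not every other SLC protein sits at the cell surface. The SLC35, SLC33 and SLC37 families serve the Golgi apparatus and the endoplasmic reticulum, SLC38A9 lies on lysosomes and SLC8B1 in mitochondria. Among the members, 3 are not carriers: SLC9A3R1 and SLC9A3R2 encode scaffold proteins and SLC2A4RG a transcription factor named for its binding to the GLUT4 gene.

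The deposited values are linear intensities that the authors had already made alike between arrays, with array medians from 90.2 to 93.4. An intensity depends on the probes as well as on the RNA, so levels are compared between animals and not between genes. In whole atrial tissue, fewer cells of a type and less RNA per cell cannot be told apart. Of a list of 9 atrial muscle cell genes, 7 were on the array and passed the filter on dim probe sets. These were NPPA, NPPB, MYL4, SLN, TNNT2, ACTN2 and RYR2. They summed to 84495 and 81610.1 in MRV, 86904 and 90138 in MR, and 83645 and 85586 in NC. The sum does not test whether the tissue is atrial. The 28S ribosomal RNA control read 341 and 559 in MRV, 187 and 280 in MR, and 117 and 468 in NC. The ratio of 3' to 5' actin control signal was 2.30 and 1.87 in MRV, 1.44 and 1.70 in MR, and 1.61 and 1.91 in NC, so MRV lay above MR without overlap.

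Of the 123 genes, 88 (71.5%) passed the filter on dim probe sets, a mean of 61.4 over the 6 arrays, against 79.9% of all genes. The filter kept 19 of the 21 SLC25 genes and 69 of the other 102. The 35 dim genes read between 6.9 and 65.3 on any array. They include carriers of gut, liver and kidney such as SLC5A1, SLC10A1, SLC15A1, SLC22A8 and SLC2A2, and also SLC27A6, a fatty acid transport protein, the lactate exporter SLC16A3 and the sodium-bicarbonate cotransporter SLC4A4. SLC27A6 read 42.3 and 33.6 in MRV, 42.5 and 42.0 in MR, and 43.4 and 43.3 in NC. SLC46A3, SLC7A4 and SLC39A2 lay just inside the filter with means of 62.5, 65.0 and 67.7, and SLC26A6, SLC26A11 and SLC44A4 just outside it with 55.0, 52.0 and 50.4.

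MR was set against NC to ask how solute carrier RNA differs when the valve leaks. SLCO3A1, an organic anion transporter of prostaglandins and thyroid hormone, SLC25A21, the mitochondrial oxodicarboxylate carrier, and SLC44A2, a choline transporter-like protein, read higher in MR. SLC25A5, an ADP/ATP carrier of the inner mitochondrial membrane, and SLC41A1, a magnesium transporter, read lower. No solute carrier gene passed the threshold: 0 of 88 with limma, where all 88 had an adjusted p = 0.999955 over 14400 probe sets and 1 probe set in all (0.00694%) was called. At an unadjusted limma p under 0.05 stood 5 of 88 genes (5.68%), 3 higher and 2 lower, beside 4.49% of the 5408 genes tested (2.61% higher, 1.89% lower). The arrays of the groups did not overlap for 27 of 88 genes (30.7%), beside 28.2% of all genes. At least 1.5-fold apart without overlap was 1 gene higher in MR, SLCO3A1, and 0 lower, beside 0.703% and 0.98% of all genes (1.68% in either direction). That count was 2 without MR2, 2 without NC1 and 5 without NC2, where 1 array fewer also makes overlap less frequent.

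SLCO3A1 read 428 and 373 in MR, compared with 240.0 and 265 in NC. Both MR arrays lay above both NC arrays, with a log2 difference of 0.63 (SE 0.12, unadjusted p = 0.00191 by limma), or 1.55-fold higher. Differences and folds are on the log2(intensity + 16) scale throughout. The other SLCO3A1 probe sets that passed the filter differed by 0.54 and 0.53, so the gene's 3 measured probe sets pointed the same way. Not every gene was alike in this. Among 17 solute carrier genes with 2 or more probe sets that passed, signs differed between probe sets for 4 in MR minus NC. They differed for 9 in MRV minus MR and for 7 in MRV minus NC. SLC25A21, whose protein exchanges 2-oxoadipate for 2-oxoglutarate in lysine and tryptophan breakdown, read 465 and 474 in MR, compared with 318 and 336 in NC (log2 difference 0.50 with an SE of 0.11, unadjusted p = 0.00395 by limma). Its arrays within a group lay close together, with SDs of 6.22 in MR and 12.9 in NC. SLC25A5 read 185 and 234 in MR, compared with 307 and 326 in NC (log2 difference -0.57 with an SE of 0.14, unadjusted p = 0.00634 by limma), again without overlap. SLC44A2 read 436 and 413 in MR, compared with 369 and 292 in NC (log2 difference 0.35 with an SE of 0.14), and its other probe set differed by 0.49. SLC41A1 read 756 and 729 in MR, compared with 880.2 and 994 in NC (log2 difference -0.33 with an SE of 0.12), and its other probe sets differed by -0.21 and -0.14. The 3 ventricular muscle markers on the array, MYL2, MYL3 and HAND1, summed to 8706 and 9352 in MRV, 21376 and 12707 in MR, and 8910 and 10455 in NC. MYL2 alone read 152 and 954 in MRV, 10693 and 2318 in MR, and 203 and 325 in NC. HAND1 read 78.0 and 81.6 in MRV, 99.8 and 59.5 in MR, and 123 and 68.7 in NC, so its groups overlapped. The MR arrays were highest without overlap for the sum, MYL2 and MYL3, as for SLCO3A1, SLC25A21 and SLC44A2. The part of these markers in those results was not tested.

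The rule for named genes, a log2 difference of at least 0.4 without overlap, was met in MR minus NC by SLCO3A1, SLC25A21 and SLC25A5. SLC44A2 and SLC41A1 fell short of 0.4 there, though their unadjusted limma p was under 0.05. A pair of further genes met the rule with a wider spread. SLC38A1, a sodium-coupled glutamine transporter, read 414 and 493 in MR, compared with 259.8 and 372 in NC (log2 difference 0.52 with an SE of 0.26, unadjusted p = 0.0958 by limma). Its other probe sets differed by 0.57 and 0.25. The NC1 array held much of that gap, since the difference was 0.27 without it. SLC46A1, the proton-coupled folate transporter, read 309 and 284 in MR, compared with 479 and 334 in NC (log2 difference -0.41 with an SE of 0.19), a value of -0.16 without NC1 and -0.66 without NC2. The 8 adipocyte markers on the array summed to 4170 and 3612 in MR and to 5130 and 3945 in NC. NC1 was the highest array for this sum, as for SLC46A1, and for FABP4, CIDEA, DGAT2 and PCK1. LPL, LIPE, ADIPOQ and LEP were highest on other arrays, with LPL at 2133 and 1082.5 in MR and 1336 and 1334 in NC. The part of these markers in the result was not tested.

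**Figure D1:**
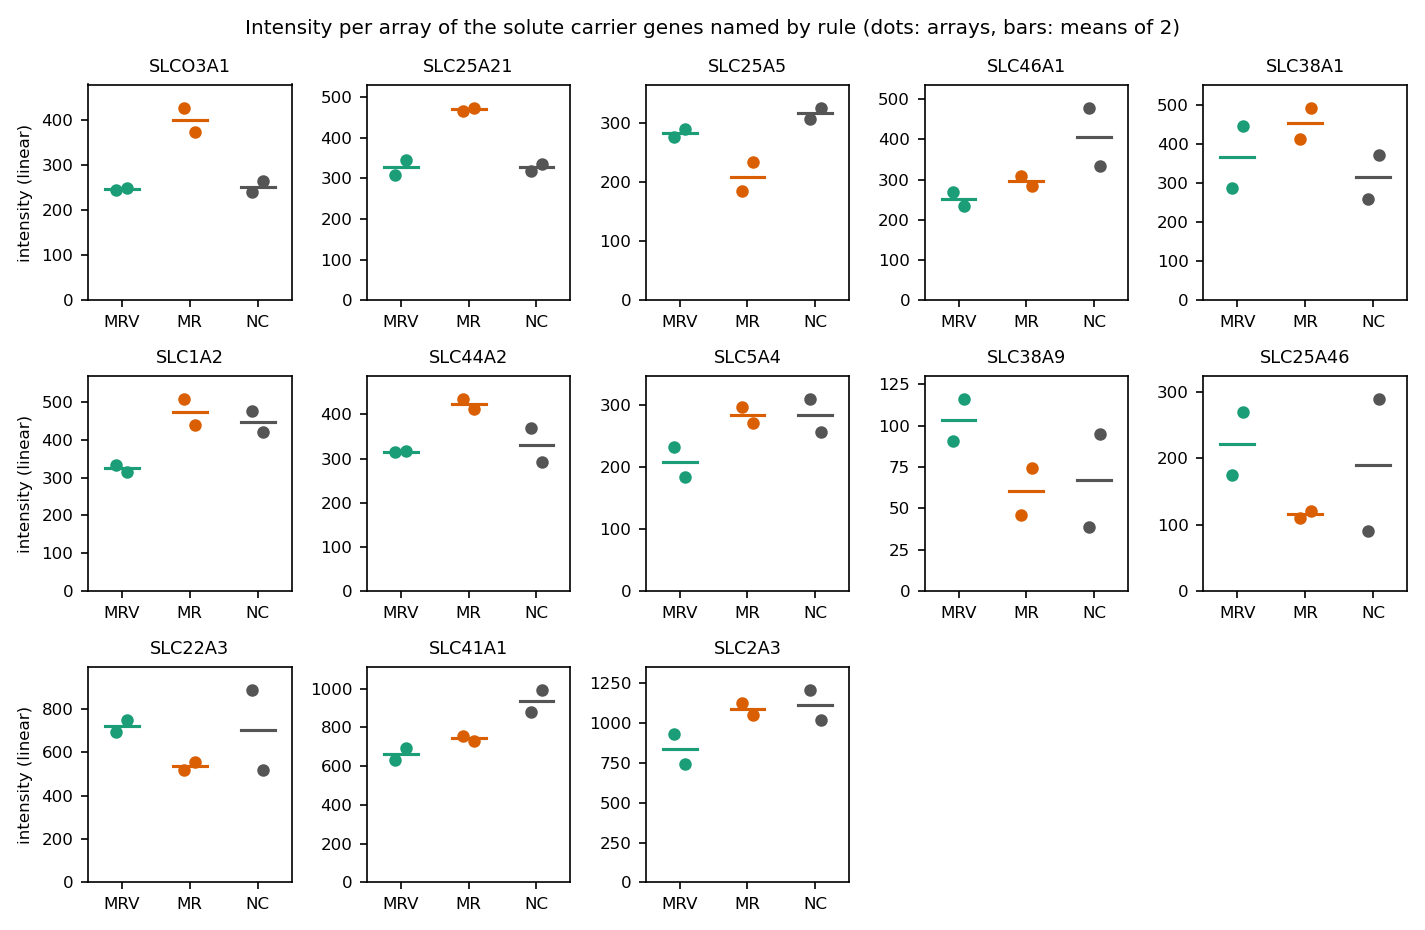
Intensity on each array (linear scale from 0) of the 13 solute carrier genes that met the rule for named genes in any comparison. Dots are the 2 animals of a group and bars their mean. For SLCO3A1 and SLC25A21 both MR dots lie above the MRV and NC dots, for SLC25A5 both lie below, and for SLC25A46, SLC38A9 and SLC22A3 the NC dots lie far apart.

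With the lesion in both groups, MRV against MR asked how solute carrier RNA differs with valsartan. SLCO3A1, SLC25A21, SLC44A2, SLC1A2, a sodium-coupled glutamate transporter, and SLC5A4, a member of the sodium-glucose cotransporter family, read lower in MRV. SLC25A5 read higher in MRV. As in the comparison above, 0 of 88 genes passed the threshold with limma (adjusted p from 0.394 to 0.999), and 0 of 14400 probe sets did (0%). At an unadjusted limma p under 0.05 stood 6 genes (6.82%), 1 higher and 5 lower, beside 7.88% of all genes, of which 1.61% were higher and 6.27% lower. The groups did not overlap for 36 of 88 genes (40.9%), beside 43.7% of all genes. At least 1.5-fold apart without overlap were 2 genes higher in MRV, SLC25A46 and SLC38A9, and 1 lower, SLCO3A1, beside 1.28% and 2.26% of all genes (3.53% in either direction). The count of 3 was 1 without MR1. The same MR arrays enter both this comparison and the one with NC, so opposite signs in them are not independent.

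SLCO3A1 read 246 and 249.9 in MRV against 428 and 373 in MR (log2 difference -0.66 with an SE of 0.12, adjusted p = 0.394 by limma), or 1.57-fold lower, and its other probe sets differed by -0.65 and -0.46. The MRV arrays nearly coincided, with an SD of 2.90 on a mean of 248, and the NC mean was 252. SLC25A21 read 309 and 345 in MRV against 465 and 474 in MR (log2 difference -0.50 with an SE of 0.11, adjusted p = 0.498 by limma). Its MRV mean of 327 was equal to the rounded NC mean of 327. SLC44A2 read 315 and 316 in MRV against 436 and 413 in MR (log2 difference -0.41 with an SE of 0.14, adjusted p = 0.631 by limma), and its other probe set differed by -0.46. When the actin ratio entered the fit its difference was -0.22. SLC25A5 read 276 and 289 in MRV against 185 and 234 in MR (log2 difference 0.41 with an SE of 0.14, adjusted p = 0.626 by limma), a value of 0.26 without MR1 and 0.27 when the actin ratio entered the fit.

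SLC1A2 read 334 and 315 in MRV against 508 and 437 in MR (log2 difference -0.52 with an SE of 0.13, adjusted p = 0.529 by limma). This glutamate transporter is best known from astrocytes of the brain. The 3 Schwann cell and neuron markers on the array were S100B, SOX10 and UCHL1. They summed to 1085 and 1784 in MRV and to 2963 and 2673 in MR, also without overlap. In NC they summed to 1713 and 2933, which overlapped with both other groups. UCHL1 alone read 633 and 1186 in MRV, 2277 and 1998 in MR, and 1122 and 2384 in NC. S100B was also lower in MRV than in MR without overlap. SOX10 overlapped, at 60.7 and 78.4 in MRV and 74.0 and 74.6 in MR. The part of these markers in the SLC1A2 result was not tested. SLC5A4 read 233 and 184 in MRV against 296 and 270.1 in MR (log2 difference -0.42 with an SE of 0.16, adjusted p = 0.668 by limma), a value of -0.26 without MRV2.

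Besides SLC25A5, 3 genes read higher in MRV by the rule for named genes, with larger SEs from a fit that pools the spread of all 3 groups. SLC25A46, which encodes a protein of the outer mitochondrial membrane that acts in mitochondrial shape and not in known solute exchange, read 174 and 270.3 in MRV against 111 and 122 in MR (log2 difference 0.82 with an SE of 0.49, adjusted p = 0.765 by limma). SLC38A9, the lysosomal arginine sensor of the mTORC1 pathway, read 90.9 and 116 in MRV against 46.0 and 74.5 in MR (log2 difference 0.67 with an SE of 0.36, adjusted p = 0.757 by limma). SLC22A3, the organic cation transporter that clears monoamines outside neurons, read 691 and 747 in MRV against 516 and 555 in MR (log2 difference 0.41 with an SE of 0.25, adjusted p = 0.766 by limma). All 3 depended on the setting. When the actin ratio entered the fit the differences were 0.40 for SLC25A46, 0.11 for SLC38A9 and 0.79 for SLC22A3. The difference of SLC25A46 was 0.53 without MRV2, and that of SLC38A9 was 0.39 without MR1 and 0.44 with a pseudocount of 64.

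Set against NC, MRV atria asked what remains different under regurgitation and valsartan together. SLC41A1, SLC1A2, SLC46A1, SLC2A3 (the glucose transporter GLUT3) and SLC5A4 read lower in MRV, and no member met the rule for named genes in the other direction. None passed the threshold: 0 of 88 with limma (adjusted p from 0.814 to 0.999), as for all 14400 probe sets (0%). At an unadjusted limma p under 0.05 stood 5 of 88 genes (5.68%), 0 higher and 5 lower, beside 5.62% of all genes (1.18% higher, 4.44% lower). The groups did not overlap for 21 genes (23.9%), 1 higher and 20 lower, beside 35.1% of all genes, or 721 higher and 1177 lower of 5408. At least 1.5-fold apart without overlap was 1 gene lower, SLC46A1, and 0 higher, beside 1.81% and 0.407% of all genes (2.22% in either direction). That count was 2 without MRV1, 0 without MRV2 and 4 without NC2.

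SLC41A1 read 629 and 691 in MRV against 880.2 and 994 in NC (log2 difference -0.49 with an SE of 0.12, adjusted p = 0.814 by limma). Its values were ordered by group, with MR at 756 and 729 in between and no overlap among the 3 groups. The other SLC41A1 probe sets that passed differed by -0.30 and -0.11, and with the mean over the gene's probe sets the difference was -0.30. SLC46A1 read 269.7 and 234 in MRV against 479 and 334 in NC (log2 difference -0.64 with an SE of 0.19, adjusted p = 0.904 by limma), a value of -0.39 without NC1. The adipocyte markers summed to 2796.5 and 2669 in MRV and to 5130 and 3945 in NC, without overlap. FABP4, CIDEA, DGAT2 and ADIPOQ also read lower in MRV without overlap, though ADIPOQ, a defining marker, was dim, from 20.3 to 35.1. LPL, LIPE, LEP and PCK1 overlapped between MRV and NC, with LPL at 534 and 1400 in MRV and 1336 and 1334 in NC. LIPE read 198 and 119 in MRV and 176 and 189 in NC. The part of the adipocyte markers in the SLC46A1 result was not tested. SLC1A2 read 334 and 315 in MRV against 476 and 419 in NC (log2 difference -0.44 with an SE of 0.13). SLC2A3 read 932 and 741 in MRV against 1211 and 1017 in NC (log2 difference -0.41 with an SE of 0.16), and SLC5A4 read 233 and 184 in MRV against 309.9 and 256 in NC (log2 difference -0.41 with an SE of 0.16). Without MRV2 these were -0.25 for SLC2A3 and -0.26 for SLC5A4. SLC1A2, SLC2A3 and SLC5A4 had the same adjusted p = 0.904 by limma.

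**Figure D2:**
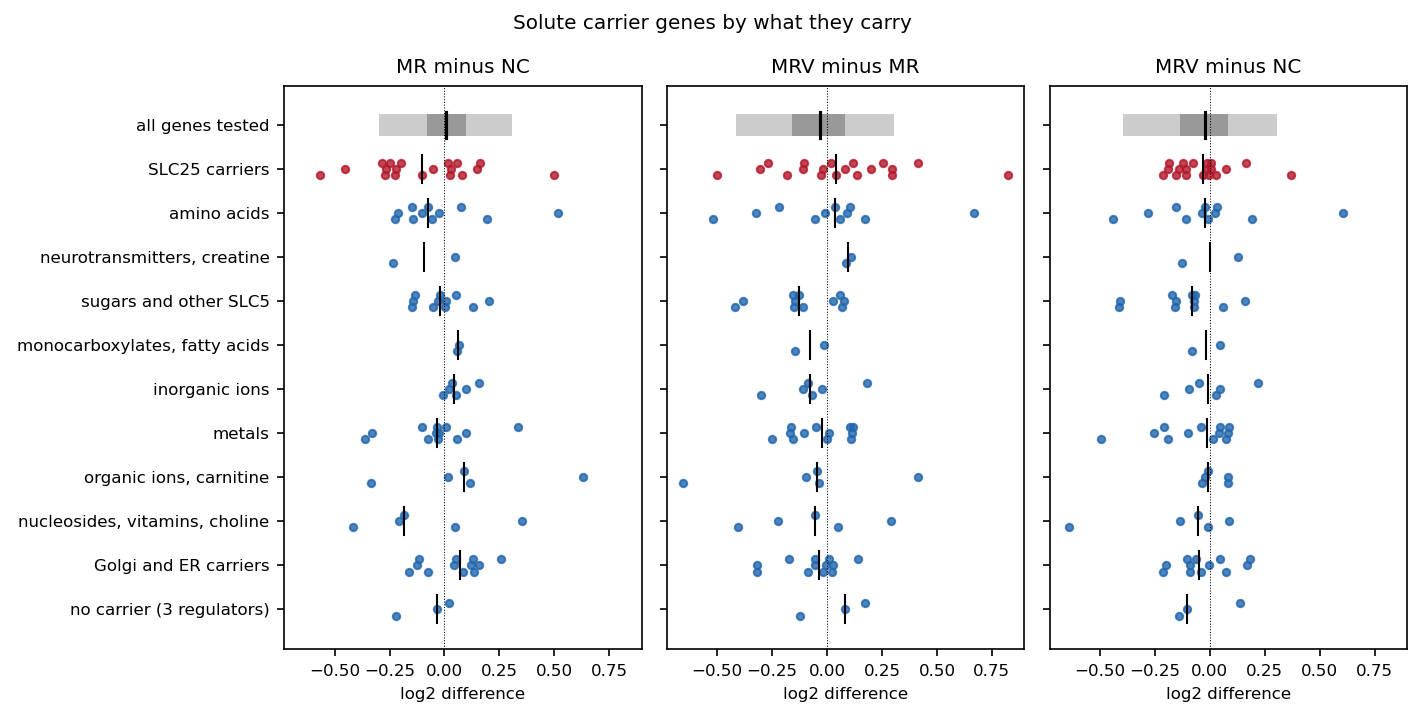
Log2 difference of each of the 88 solute carrier genes that passed the filter, by what the protein carries, in the 3 comparisons. Black ticks are medians, the light and dark grey bars at the top span the 5th to 95th and the 25th to 75th percentiles of all 5408 genes tested, and red dots are SLC25 genes. Most dots fall inside the grey range, with medians of the SLC25 genes at -0.10, 0.04 and -0.03.

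The SLC25 genes are described next by what they carry. Their median log2 difference was -0.10 in MR minus NC (8 higher, 11 lower), 0.04 in MRV minus MR (11 higher, 8 lower) and -0.03 in MRV minus NC (6 higher, 13 lower). Over all genes the medians were 0.0076, -0.031 and -0.023. The SLC25 median in MR minus NC depended on single animals, at 0.0015 without NC1 and -0.029 without MR1, and that in MRV minus NC was -0.0026 without MRV1, -0.10 without MRV2 and -0.11 without NC2. In MRV minus MR it was 0.015 without MR1 and 0.0038 when the actin ratio entered the fit. In MRV minus MR 12 of 19 SLC25 genes did not overlap, 6 in each direction, a share of 63.2% beside 43.7% of all genes. The share was 31.6% beside 28.2% in MR minus NC, and 21.1% beside 35.1% in MRV minus NC.

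The ADP/ATP carriers export the ATP that mitochondria make. SLC25A4, the isoform of heart and muscle, read 11436 and 11616 in MRV, 11044 and 11406 in MR, and 11179 and 12115 in NC, and the groups overlapped in MR against NC and in MRV against NC. SLC25A6 read 1503 and 1867 in MRV, 1449 and 1461 in MR, and 1964 and 1419 in NC. For both genes MRV lay above MR without overlap, with log2 differences of 0.038 for SLC25A4 and 0.20 for SLC25A6. SLC25A5, described above, was the one of these whose groups did not overlap in any comparison, with MR lowest and NC highest. These carriers are close in sequence, and cross-hybridization between their probe sets was not tested. The phosphate carrier SLC25A3, which supplies ATP synthase, read 12513 and 12865 in MRV, 13019.5 and 12865 in MR, and 12686 and 12929 in NC, with no comparison in which the groups stood apart. The ATP-Mg/phosphate carrier SLC25A24 read 405 and 407 in MRV, 320.1 and 422 in MR, and 543 and 355 in NC. Of the list of 10 adenine nucleotide and phosphate carriers, 5 were on the array and passed, with 1 higher and 4 lower in MR than in NC, 4 higher and 1 lower in MRV than in MR, and 1 higher and 4 lower in MRV than in NC.

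SLC25A12, the calcium-stimulated aspartate/glutamate carrier of the malate-aspartate shuttle, read 1796 and 2332 in MRV, 1655 and 1777 in MR, and 1873 and 2336 in NC. Its MR arrays lay below all the others. Its partner in that shuttle, the oxoglutarate/malate carrier SLC25A11, read 749 and 698 in MRV, 777 and 869 in MR, and 829 and 752 in NC, with MRV below MR. The citrate carrier SLC25A1, which feeds lipid synthesis, read 243 and 227 in MRV, 276 and 297 in MR, and 321 and 226 in NC. The carnitine-acylcarnitine carrier SLC25A20, the step of fatty acid import after CPT1, read 508 and 402 in MRV, 439 and 394 in MR, and 499 and 478 in NC. Both NC arrays exceeded both MR arrays, and MRV overlapped with each of the other groups. Of the list of 8 aspartate, glutamate and dicarboxylate carriers, 4 passed, with 3 higher in MR than in NC, 1 higher in MRV than in MR, and 0 higher in MRV than in NC.

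Carriers tied to iron and heme are mitoferrin (SLC25A37), the glycine carrier SLC25A38 and SLC25A39, which brings glutathione into mitochondria. SLC25A38 read 244 and 254 in MRV, 322 and 301 in MR, and 309 and 247 in NC, with MRV below MR. SLC25A39 read 293 and 320.5 in MRV, 330.2 and 334 in MR, and 368 and 348 in NC, an order of MRV, MR, NC without overlap. SLC25A37 read 194 and 205 in MRV, 201 and 193 in MR, and 153 and 202 in NC. Of the 4 measured genes of the red cell carrier list, which also holds the iron importer SLC11A2, 3 were higher in MR than in NC and 1 was higher in MRV than in MR. The 3 red cell markers on the array were HBB, ALAS2 and AHSP. They summed to 380.4 and 359 in MRV, 437 and 448 in MR, and 440.1 and 469 in NC. MRV was lowest without overlap in this sum only, and in none of the 3 markers alone. HBB read 295 and 251 in MRV, 328 and 273 in MR, and 345 and 205 in NC. ALAS2 read 59.3 and 81.9 in MRV, 82.3 and 135 in MR, and 70.8 and 214 in NC, and AHSP was dim. The part of these markers in the values of this list was not tested. The pyrimidine nucleotide carriers SLC25A33 and SLC25A36 and the brain-type carrier SLC25A14 had ranges of 132 to 166, 63.6 to 112 and 127 to 144 over the 6 arrays. SLC25A30, known as a kidney mitochondrial carrier, read 795 and 960.2 in MRV, 794 and 633 in MR, and 879 and 833 in NC, and the MR arrays were the lowest.

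**Figure D3:**
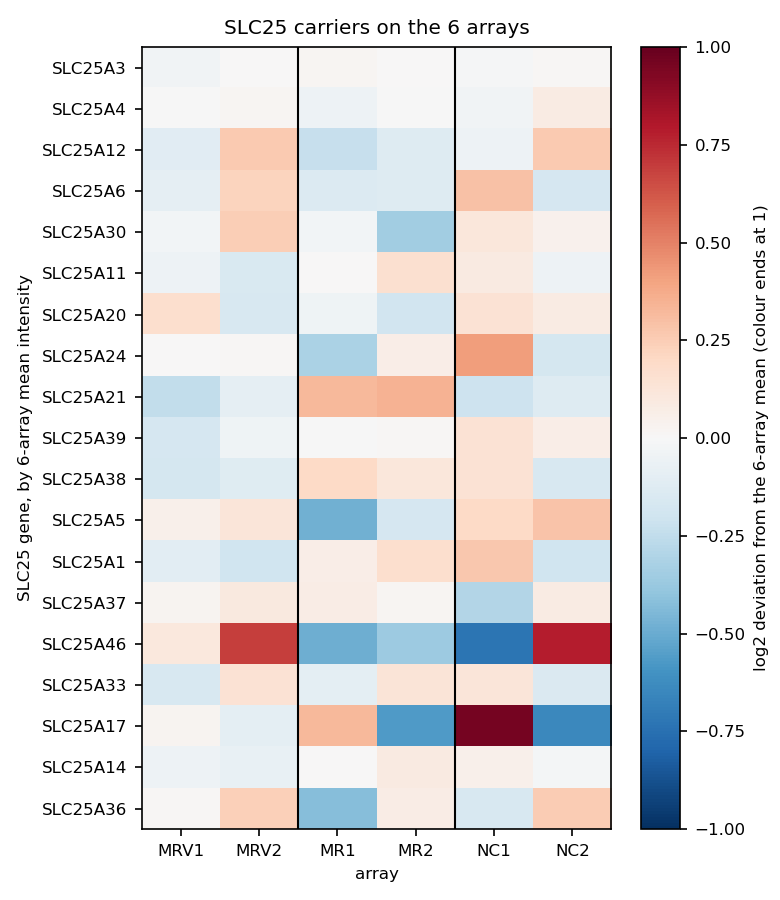
Log2 deviation of the 19 SLC25 genes that passed the filter from their own mean over the 6 arrays, with arrays grouped as MRV, MR and NC. SLC25A21 is high on both MR arrays and SLC25A5 low on both, while SLC25A46 and SLC25A17 differ most between the arrays of NC.

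The NC animals differed more from each other than the lesioned animals did. The median gap between the 2 arrays of a group for SLC25 genes was 0.12 in MRV, 0.10 in MR and 0.26 in NC on the log2 scale, beside 0.12, 0.13 and 0.17 for all genes and 0.14, 0.14 and 0.18 for the other solute carriers. SLC25A17, which serves peroxisomes and not mitochondria as a carrier of coenzyme A and FAD, read 131 and 119 in MRV, 166 and 81.9 in MR, and 264 and 76.5 in NC, a 3.03-fold gap within NC. SLC25A46 read 90.8 and 289.8 in NC, a 2.86-fold gap, and SLC38A9 read 38.8 and 95.1, a 2.03-fold gap. On SLC25A46, SLC38A9 and the 28S control the second animal read higher than the first in each of the 3 groups. The part of ribosomal RNA in these values was not tested. SLC22A3 read 888 and 517 in NC, and SLC37A4, the glucose 6-phosphate carrier of the endoplasmic reticulum, read 94.0 and 159.5 in NC while the lesioned animals read from 138 to 142.

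**Figure D4:**
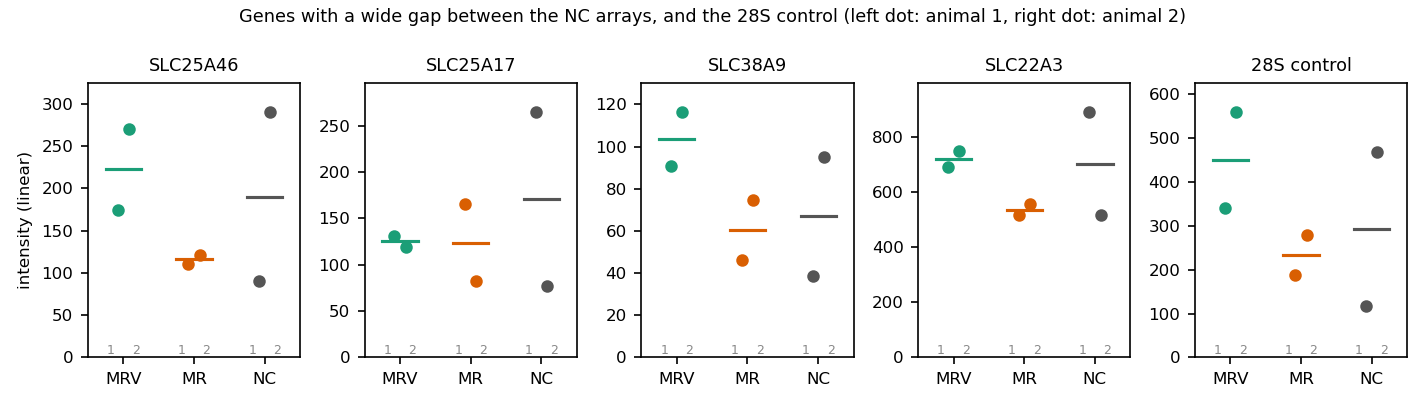
Intensity (linear scale from 0) of SLC25A46, SLC25A17, SLC38A9 and SLC22A3 and of the 28S ribosomal RNA control by group, with animal 1 on the left and animal 2 on the right of each pair and bars for the mean of 2. The NC dots of SLC25A46 are at 90.8 and 289.8 and those of the 28S control at 117 and 468.

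Among amino acid carriers, 11 of 17 genes passed the filter, and 3 were higher and 8 lower in MR than in NC with a median of -0.073. In MRV minus MR 6 were higher and 5 lower (median 0.037), and in MRV minus NC 4 were higher and 7 lower (median -0.023). Several plasma membrane amino acid carriers are known targets of ATF4, the transcription factor of the amino acid response, as is asparagine synthetase (ASNS). Of a list of 10 such carriers, SLC1A4, SLC1A5, SLC3A2 and SLC7A1 were measured. SLC1A5, the glutamine and neutral amino acid exchanger, read 195 and 227 in MRV, 202 and 207 in MR, and 233 and 222 in NC. SLC3A2, the heavy chain that carries several SLC7 transporters to the cell surface, read 169 and 195 in MRV, 217 and 166 in MR, and 258 and 195 in NC. SLC1A4 read 86.2 and 83.1 in MRV, 78.8 and 82.7 in MR, and 105 and 88.0 in NC, with NC above both lesioned groups. The arginine carrier SLC7A1 read 224 and 261 in MRV, 211 and 243 in MR, and 241 and 247 in NC.

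All 4 of these carriers were lower in MR than in NC, with a median of -0.18, beside 2565 of all 5408 genes. In MRV minus NC all 4 were lower, with a median of -0.13, beside 3015 of 5408, and none was called in any comparison. SLC3A2 and SLC7A1 overlapped between MR and NC, and SLC1A5 and SLC7A1 between MRV and NC. SLC7A1 differed by -0.0094 in MRV minus NC. In MRV minus MR 3 of the 4 carriers were higher and 1 lower. ASNS, measured beside them, read 214 and 237 in MRV, 193 and 173 in MR, and 779 and 852 in NC. Its log2 difference of -2.06 in MR minus NC was the 1 call among all probe sets (SE 0.12, adjusted p = 0.0466 by limma), and in MRV minus NC it was -1.79 (SE 0.12, adjusted p = 0.0649 by limma). Of 11 measured genes of the amino acid response outside the carriers, 6 were higher and 5 lower in MR than in NC, 6 higher and 5 lower in MRV than in MR, and 4 higher and 7 lower in MRV than in NC. ATF4 itself read 1776 and 1578 in MRV, 2561 and 2305 in MR, and 1912 and 2295 in NC, and its target ATF3 read 89.1 and 49.0 in MRV, 265 and 357 in MR, and 1099.5 and 409 in NC. ATF3 was ordered MRV, MR, NC without overlap, and none of these genes besides ASNS was called.

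Fuel carriers of heart muscle showed small differences. Of 13 listed genes 10 were on the array and 7 passed, with 4 higher in MR than in NC, 2 higher in MRV than in MR and 1 higher in MRV than in NC. SLC2A4, the insulin-responsive glucose transporter GLUT4, read 156 and 173 in MRV, 172 and 140.1 in MR, and 160.5 and 188 in NC. SLC2A1, or GLUT1, read 124 and 138 in MRV, 151 and 137 in MR, and 169 and 112 in NC. The groups of both genes overlapped in all 3 comparisons. SLC16A13, a monocarboxylate carrier, ranged from 64.5 to 77.2. SLC27A1, a fatty acid transport protein, read 209.5 and 222 in MRV, 204 and 233 in MR, and 213 and 204 in NC. SLC22A5, the carnitine importer, read 164 and 140.3 in MRV, 160.0 and 155 in MR, and 158 and 153 in NC. The creatine transporter SLC6A8 read 768 and 745 in MRV, 701 and 701 in MR, and 840.3 and 813 in NC, so its groups did not overlap in any comparison, with a range of 701 to 840.3 in all.

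The sugar and SLC5 class held 15 genes, of which 11 passed. In MRV minus MR 4 of the 11 (36.4%) did not overlap, all lower, with a class median of -0.13, beside 43.7% of all genes without overlap in either direction and 1552 of 5408 lower. Besides SLC2A3 and SLC5A4 these are SLC2A12, or GLUT12, at 132 and 114 in MRV, 138 and 138 in MR, and 134 and 142 in NC, and SLC2A8, at 63.8 and 70.7 in MRV, 80.5 and 72.3 in MR, and 76.5 and 78.7 in NC. In MRV minus NC 9 of the 11 were lower (median -0.083), beside 3015 of all 5408 genes.

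Of the ion exchangers, 6 of 12 passed the filter. SLC8A1, the sodium-calcium exchanger that removes calcium after each beat, read 83.4 and 107 in MRV, 76.7 and 86.2 in MR, and 70.8 and 87.9 in NC, with overlap in each comparison. SLC8B1, the mitochondrial sodium-calcium exchanger, ranged from 62.0 to 74.9, the anion exchanger SLC4A2 from 115 to 145, and the potassium-chloride cotransporter SLC12A4 from 230.2 to 264. The phosphate cotransporter SLC34A2 read 71.5 and 72.1 in MRV, 107 and 79.5 in MR, and 83.0 and 87.7 in NC, with MRV lowest.

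Metal carriers passed the filter in 12 of 13 cases. Apart from SLC41A1, the zinc importer SLC39A1 read 241 and 282 in MRV, 284 and 240.5 in MR, and 272 and 266 in NC. SLC39A14, which imports zinc, iron and manganese, read 85.8 and 112 in MRV, 92.7 and 102 in MR, and 84.2 and 111 in NC. The copper importer SLC31A1 read 209.5 and 218 in MRV, 209 and 256 in MR, and 273 and 228 in NC, so MRV lay below NC. The medians of the class were -0.033 in MR minus NC, -0.025 in MRV minus MR and -0.013 in MRV minus NC.

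Carriers of the Golgi apparatus and endoplasmic reticulum passed in 12 of 13 cases. SLC35F5 read 1531 and 1194 in MRV, 1439 and 1375 in MR, and 1249.7 and 1317 in NC. SLC35B1, which brings ATP into the endoplasmic reticulum, read 543 and 579 in MRV, 546 and 554 in MR, and 573 and 623 in NC. The acetyl-CoA carrier SLC33A1 read 103 and 88.7 in MRV, 119 and 129 in MR, and 109.8 and 92.6 in NC, with MR above both other groups. Neither of its other probe sets that passed put MR above both groups. They differed by 0.046 and 0.13 in MR minus NC, each with overlap, and by -0.083 and -0.13 in MRV minus MR. SLC35A4 read 158 and 164 in MRV, 169 and 166 in MR, and 193 and 186 in NC, an order of MRV, MR, NC without overlap. Its other probe set did not show that order. It read 86.0 and 92.3 in MRV, 91.4 and 81.3 in MR, and 95.9 and 83.7 in NC, with overlap in every comparison.

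Of the remaining classes, organic ion carriers passed in 5 of 11 cases, vitamin, nucleoside and choline carriers in 5 of 11, and neurotransmitter and osmolyte carriers in 2 of 3. SLC29A1, the equilibrative nucleoside transporter that takes up adenosine, read 91.9 and 106 in MRV, 90.8 and 66.0 in MR, and 77.2 and 109 in NC, with MRV above MR by a narrow margin. The serotonin transporter SLC6A4 ranged from 64.3 to 88.5. The riboflavin transporter SLC52A2 ranged from 87.2 to 95.2 over the 6 arrays. The drug carriers SLC22A6 and SLCO2B1 ranged from 101 to 119 and from 81.5 to 116. The scaffold gene SLC9A3R2 read 275 and 377 in MRV, 266 and 347 in MR, and 321 and 396 in NC, with overlap in every comparison, as for SLC2A4RG, which ranged from 192 to 277.

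Genes that work beside the carriers were read from lists of their own. Of 15 measured genes of mitochondrial transport outside SLC25, 7 were higher and 8 lower in MR than in NC, 7 higher and 8 lower in MRV than in MR, and 5 higher and 10 lower in MRV than in NC, with 0 called by limma. CPT1B, which makes the acylcarnitines that SLC25A20 imports, read 1183 and 1164 in MRV, 938 and 885 in MR, and 1222 and 1354.5 in NC, with MR below both other groups. CKMT2, the mitochondrial creatine kinase that takes ATP from the ADP/ATP carriers, read 2399 and 2588 in MRV, 4655 and 3685 in MR, and 3016 and 3942 in NC, with MRV below both other groups. Of 8 measured genes of pumps, channels and carrier subunits at the cell surface, 3 were higher in MR than in NC, 4 higher in MRV than in MR, and 3 higher in MRV than in NC, with 0 called. BSG, the chaperone of lactate carriers, read 989 and 1103 in MRV, 1316 and 1324 in MR, and 1294.5 and 1274.5 in NC, with MRV lowest.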

How the data were processed

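The authors deposited 1 linear intensity for each probe set on each array, normalized between arrays. MAS5 and RMA appear in the submitters' processing notes, and the sources used here do not say which made the intensity values. Raw scanner files were not used here. Of 24123 probe sets, 124 controls were left out. Symbols came from the platform annotation. By Entrez ID, 121 of the 123 member genes matched a RefSeq gene table (assembly Sscrofa11.1), with 0 symbols changed, while SLC2A1 and SLC8A1 did not match and keep the annotation's name. No coordinates or sequences are printed.

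Tests used log2(intensity + 16), a scale on which differences and folds of dim probe sets come out too small. Probe sets averaging below the 40th percentile (61.4) were not tested, which left 14400. All 6 arrays were fitted together with 3 group means (limma 3.58.1 in R 4.3.3, lmFit and eBayes, 3 residual and 2.78 prior degrees of freedom). Adjusted p-values are Benjamini-Hochberg values over all probe sets tested in a comparison, with a threshold of 0.05. The fit was tested on simulated data with planted changes larger than any solute carrier difference here. That check therefore does not bear on the solute carrier results. With 2 arrays a group, array number limits precision. Each array is a separate pig per the series' design, so differences between replicates mix animals with technical error.

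The member genes, lists and tests were chosen with earlier results of these data known. Named by rule are genes past the threshold, then up to 20 per comparison by smallest p among those without overlap and with a log2 difference of 0.4 or more, the 2 brightest genes of each role class, the listed carriers and up to 4 partner genes a list. Other genes were chosen after their values were seen, among them SLC37A4, SLC35A4, SLC33A1, SLC34A2, SLC31A1, SLC39A14, SLC22A6 and SLCO2B1. Role classes follow the family number, so the sugar class also holds SLC5 carriers of iodide and vitamins. In all, 15 alternative settings were tried.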

Additional observations from a re-analysis of the deposited data

How the results depend on the processing

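In each of the 15 alternatives the number of solute carrier genes called stayed at 0 in all 3 comparisons, and all 19 named differences kept their sign and an adjusted p above the threshold wherever they were tested (SLC38A9 was filtered out at the 60th percentile), with a lowest limma adjusted p of 0.139. The number of genes at least 1.5-fold apart without overlap, 1 in MR minus NC, 3 in MRV minus MR and 1 in MRV minus NC, moved most. With a pseudocount of 64 it was 0, 1 and 0, and in MR minus NC it was 2 with a pseudocount of 1 and 0 with the mean of all probe sets of a gene. When the actin ratio entered the fit it was 0 in MRV minus NC. Leaving out 1 array gave from 1 to 5, from 1 to 4 and from 0 to 4. The SLC25 median in MR minus NC was -0.052 with no filter, and ranged from -0.11 to 0.0015 without 1 array, while that in MRV minus NC ranged from -0.11 to -0.0026. In MRV minus MR it was 0.0038 when the actin ratio entered the fit and 0.024 with quantile normalization, and ranged from 0.015 to 0.050 without 1 array. The median of the other solute carriers was -0.035 in MR minus NC and -0.092 in MRV minus NC with the filter at the 60th percentile, and in MRV minus MR it was -0.010 with no filter and 0.010 when the actin ratio entered the fit. Without 1 array it ranged from -0.029 to 0.044 in MR minus NC, from -0.064 to -0.019 in MRV minus MR and from -0.063 to -0.0087 in MRV minus NC. The cause of these shifts was not tested, apart from the fewer genes or arrays that a filter or a left-out array brings.

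Replicate numbers are shared between groups, and no label says that they pair animals. Deviations of same-numbered arrays correlated at 0.02 between MRV and MR, 0.20 between MRV and NC and 0.34 between MR and NC across probe sets. With the replicate number as a block the counts at least 1.5-fold apart were 1, 3 and 1, the calls stayed at 0, and SLCO3A1 in MRV minus MR had a limma adjusted p = 0.318. With 2 animals a group, the median SE of a member was 0.14 on the log2 scale.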
